A study of Mus musculus with 17 samples.

Results

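The genes described here are the amyloid precursor protein gene App, its paralogs Aplp1 and Aplp2, and 6 genes for the enzymes that cut them: Adam10, Bace1, Psen2, Ncstn, Aph1a and Psenen. They were taken by symbol from a table of read counts per gene, in which all 9 of 9 were found among 24498 symbols. The counts came from bulk sequencing of poly(A) RNA from the dorsal hippocampus of mice. Wild type (WT) mice and mice with a constitutive knockout (KO) of Acss2, which encodes a synthetase that turns acetate into acetyl-CoA, were bred as homozygous lines from a common heterozygous stock. At 6 months of age they were injected in the dorsal hippocampus with pathological tau purified from Alzheimer's disease brain (Tau) or with phosphate-buffered saline (PBS), and tissue was taken after perfusion with paraformaldehyde. The 17 libraries form 6 groups. Males gave 4 of them, WT and KO with either injection, at 3 libraries a group. Females, all injected with Tau, gave the other two, KO with 3 libraries and WT with 2. Females that received PBS were not part of the samples, and the female and male libraries carry separate series of numbers in the labels, so sex and anything else that differed between the series cannot be told apart. The mice carry their own App gene, and no App transgene is named in the labels.

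App is a membrane protein that is cut in steps. The alpha-secretase Adam10 cuts it within the amyloid beta sequence and releases the soluble ectodomain, whereas the beta-secretase Bace1 cuts at the start of that sequence. The remaining stub is then cut within the membrane by gamma-secretase, a complex of a catalytic presenilin such as Psen2, nicastrin (Ncstn), Aph1 (Aph1a or its paralogs) and Pen2 (the product of Psenen). Aplp1 and Aplp2 are cut by the same enzymes but lack the amyloid beta sequence. In the brain, App and Aplp1 are abundant in neurons, and App and Aplp2 are also made by many other cell types.

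The libraries held 14183131 to 22463635 counts each. A count of 0 sets an upper limit of 3 counts, or 0.134 to 0.212 CPM (counts of a gene per 1000000 counts of its library). This limit covers counting error only. All 9 genes were far above it in every library and passed the filter on low counts in every fit. Acss2 was at 44 to 54.6 CPM in the WT libraries and between 3.07 and 8.81 CPM in those of KO mice, and Xist had 12161 to 19209 counts in females and at most 2 in males, so genotype and sex labels were met in all libraries. Dissections varied: summed choroid plexus markers ran from 24.1 to 4025 CPM, striatal markers from 24.7 to 265 CPM and dentate granule cell markers from 136 to 587 CPM, and no marker was at 0 in a library. In male KO Tau replicate 711, the summed markers of several lists lay outside the ranges of the other 11 male libraries. Those of astrocytes (6499 CPM against 3309 to 4149), oligodendrocytes (7584 against 3033 to 5931), CA1 pyramidal cells (883 against 349 to 797), microglia (428 against 269 to 391), endothelium (176 against 81 to 150) and thalamus (127 against 27.5 to 108) were above, and those of inhibitory neurons (609 against 836 to 1196) and striatum (24.8 against 26.6 to 265) were below. Several results that rest on this library are given with and without it. The labels number the libraries but do not say whether each is 1 animal, so p-values measure the spread between libraries.

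The 9 genes lie on 5 mouse chromosomes (GRCm38, GENCODE annotation). App spans 84949685 to 85173766 of chromosome 16, Aplp1 30434982 to 30445535 of chromosome 7 and Aplp2 31149557 to 31211815 of chromosome 9. Of the enzymes, Adam10 (70678997 to 70780229) and Bace1 (45838580 to 45864399) are on chromosome 9, Psen2 (180227004 to 180263438) and Ncstn (172066013 to 172082795) on chromosome 1, Aph1a (95893969 to 95898288) on chromosome 3 and Psenen (30561863 to 30563627) on chromosome 7. All are protein coding. Every annotated gene that overlaps a member lies on the opposite strand, among them Rnf214 at the end of Bace1, Copa at the start of Ncstn, Car14 at Aph1a and U2af1l4 at Psenen. The counting used strand, and Tsix, which lies antisense to Xist, had at most 6 counts in any library.

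The 250 bases before the RefSeq start (GRCm38.p6) are shown for 3 members that were lower in female than in male libraries (App, Aplp1 and Ncstn) and for Adam10, the most stable member. They were read 5′ to 3′ on the strand of the gene, and capitals mark the GC box letters GGGCGG on either strand.
App, chr16:85173708-85173957, minus strand: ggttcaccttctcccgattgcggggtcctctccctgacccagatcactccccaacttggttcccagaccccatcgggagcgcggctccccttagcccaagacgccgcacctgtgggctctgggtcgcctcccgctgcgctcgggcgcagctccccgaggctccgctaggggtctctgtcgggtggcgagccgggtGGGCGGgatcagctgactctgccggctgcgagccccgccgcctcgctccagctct
Aplp1, chr7:30445583-30445832, minus strand: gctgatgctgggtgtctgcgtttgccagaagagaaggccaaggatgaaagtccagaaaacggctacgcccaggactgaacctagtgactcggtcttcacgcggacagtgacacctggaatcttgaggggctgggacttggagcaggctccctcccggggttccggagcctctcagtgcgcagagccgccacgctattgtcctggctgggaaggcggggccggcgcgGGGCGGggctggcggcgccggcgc
Ncstn, chr1:172082750-172082999, minus strand: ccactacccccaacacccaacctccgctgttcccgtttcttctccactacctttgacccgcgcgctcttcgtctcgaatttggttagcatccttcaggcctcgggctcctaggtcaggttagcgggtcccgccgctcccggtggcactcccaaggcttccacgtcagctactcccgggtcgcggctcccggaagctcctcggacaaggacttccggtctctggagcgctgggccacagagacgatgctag
Adam10, chr9:70678732-70678981, plus strand: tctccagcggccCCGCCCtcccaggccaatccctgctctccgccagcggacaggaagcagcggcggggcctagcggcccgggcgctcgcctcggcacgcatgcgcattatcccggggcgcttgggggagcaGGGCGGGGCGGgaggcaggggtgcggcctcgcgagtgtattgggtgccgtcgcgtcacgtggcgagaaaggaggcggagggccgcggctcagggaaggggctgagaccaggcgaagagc

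RefSeq had entries for 8 of the 9 members (10 windows, since Psen2 and Psenen have 2 starts each) and none for Bace1. All 4 windows printed were rich in G and C, with 70.8% for App, 66% for Aplp1, 63.2% for Ncstn and 74% for Adam10, against a median of 52.4% over 32851 promoters. They held 23, 20, 21 and 29 CG dinucleotides, against a median of 6. The GC box occurred once before App and before Aplp1, 3 times before Adam10 and Aplp2, and not before Ncstn, and 32.7% of all promoters held it. The CCAAT letters (33.8% of promoters) were found 2 times before Adam10, Aplp2 and Aph1a and not before App, Aplp1 or Ncstn. The letters CACGTG (6.02% of promoters) occurred once before Adam10 and before 1 start of Psen2, and neither TATAAA (12.4%) nor TGACGTCA (1.55%) was found before any of them. Both strands were searched for every motif, and a match is only a match of letters.

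The precursor genes were the most abundant members. Per kilobase of merged exons, Aplp1 was highest at 480 ± 60.6 CPM (SD, n = 17 libraries, range 366 to 558), followed by App at 151 ± 31.9 (97.4 to 194) and Aplp2 at 106 ± 13.7 (83.4 to 133). The ranges of App and Aplp2 overlapped, and that of Aplp1 lay above both. Among the proteases, Adam10 (20.6 ± 1.5) and Bace1 (18.3 ± 2.45) were at levels whose ranges overlapped (17.9 to 23 and 14 to 21.1). Of the gamma-secretase genes, Psenen (16.7 ± 1.97) and Ncstn (15.1 ± 1.79) were close, Aph1a was lower at 5.67 ± 0.47 and Psen2 lowest at 3.51 ± 0.682 CPM per kilobase. The ranges of these last 2 genes met, at 4.76 to 6.66 for Aph1a and 2.3 to 4.78 for Psen2.

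These levels depend on the length taken for a gene. Merged exons of App add up to 12996 bases, and its longest coding transcript has 8167. With the longest coding transcript, App was at 240 and Psenen, whose transcript is only 708 bases long, moved from the sixth to the fourth place among the 9 members at 30 CPM per kilobase. Psen2 (7.53) and Aph1a (6.83) changed places. The first 3 places were the same with either length. Paralogs were measured in the same libraries. Per kilobase of merged exons, the mean of Aph1b (7.74 ± 1.13 CPM) was above those of Aph1a and Aph1c (1.96 ± 0.17), and Bace2 (0.328 ± 0.123) was far below Bace1. The ranges of Aph1b (6.37 to 9.99) and Aph1a overlapped. Adam9 (17.1 ± 1.85) overlapped Adam10, and Adam17 (2.34 ± 0.345), another alpha-secretase, did not.

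**Figure D1:**
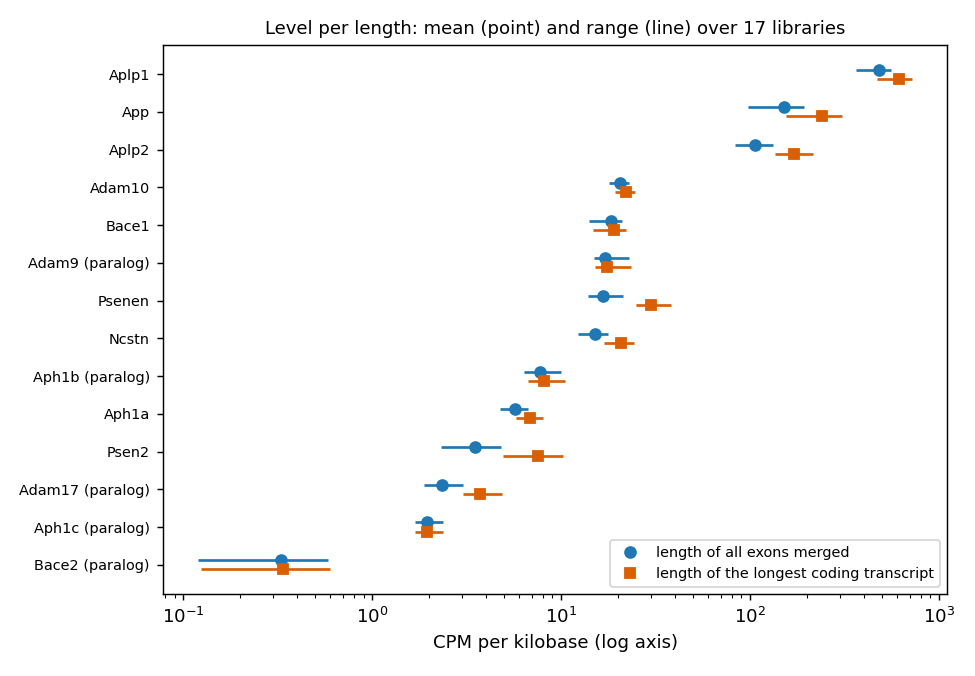
Level of the 9 genes and 5 paralogs in CPM per kilobase on a log axis, as the mean (points) and range (lines) over 17 libraries, with the length of merged exons (circles) or of the longest coding transcript (squares). Aplp1, App and Aplp2 lie above all secretase genes with either length, and Bace2 is lowest at 0.328.

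Across the 6 groups, levels of App fell into a male and a female range, with 1 male library in the female range. App was at 2035, 2165 and 2196 CPM in male WT PBS, at 2167, 2171 and 2129 in male WT Tau and at 2188, 2515 and 2433 in male KO PBS. In male KO Tau it was at 1411, 2295 and 2308 CPM, in female WT Tau at 1295 and 1738 and in female KO Tau at 1457, 1536 and 1266. The lowest male library was male KO Tau replicate 711, and the other 11 male libraries were above all 5 female ones. For App and the other members, the share of all genes separated in this way over males of both injections was not counted. The share over the Tau libraries alone is given further below.

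Aplp1, the paralog found mainly in neurons, showed the clearest separation. It was at 1452, 1549 and 1590 CPM in male WT PBS, at 1476, 1553 and 1612 in male WT Tau, at 1636, 1332 and 1685 in male KO PBS and at 1431, 1618 and 1623 in male KO Tau. Female WT Tau libraries had 1249 and 1308 CPM and female KO Tau libraries 1191, 1210 and 1103. No female library reached the lowest male one, which was a male KO PBS library. Aplp2, expressed widely, ranged from 490 to 782 CPM in males and from 521 to 583 CPM in females, and its lowest library was again male KO Tau replicate 711.

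The 2 proteases that compete for App differed in pattern. Bace1 was at 128, 126 and 123 CPM in male WT PBS, at 123, 126 and 128 in male WT Tau, at 131, 121 and 133 in male KO PBS and at 89, 134 and 119 in male KO Tau. In females it was at 92.5 and 106 CPM (WT Tau) and at 100, 96.5 and 95.7 CPM (KO Tau), below the 11 male libraries other than replicate 711. Adam10 was at 88 to 110 CPM in males and at 91.9 to 113 CPM in females, so that the sexes overlapped widely. Its coefficient of variation over the 17 libraries was 7.27%, the lowest of the 9 members, and 2.99% of the 15594 genes tested had a lower one.

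Among the gamma-secretase genes, Ncstn, which recruits substrates to the complex, was at 67.8, 67.1 and 70.5 CPM in male WT PBS, at 60.2, 62.7 and 64.8 in male WT Tau, at 57.3, 66 and 59.5 in male KO PBS and at 50.1, 65.8 and 67 in male KO Tau. Female libraries had 50.3 and 55.2 CPM (WT Tau) and 48.9, 54.7 and 51.8 CPM (KO Tau). As for Bace1, only replicate 711 among the males lay in or below the female range. Psen2 ranged from 12.4 to 20.7 CPM in males and from 9.95 to 15.6 in females, Aph1a from 18.2 to 23 and from 16.4 to 21.5, and Psenen from 17.7 to 24.6 and from 17.7 to 27, and in all 3 the sexes overlapped.

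**Figure D2:**
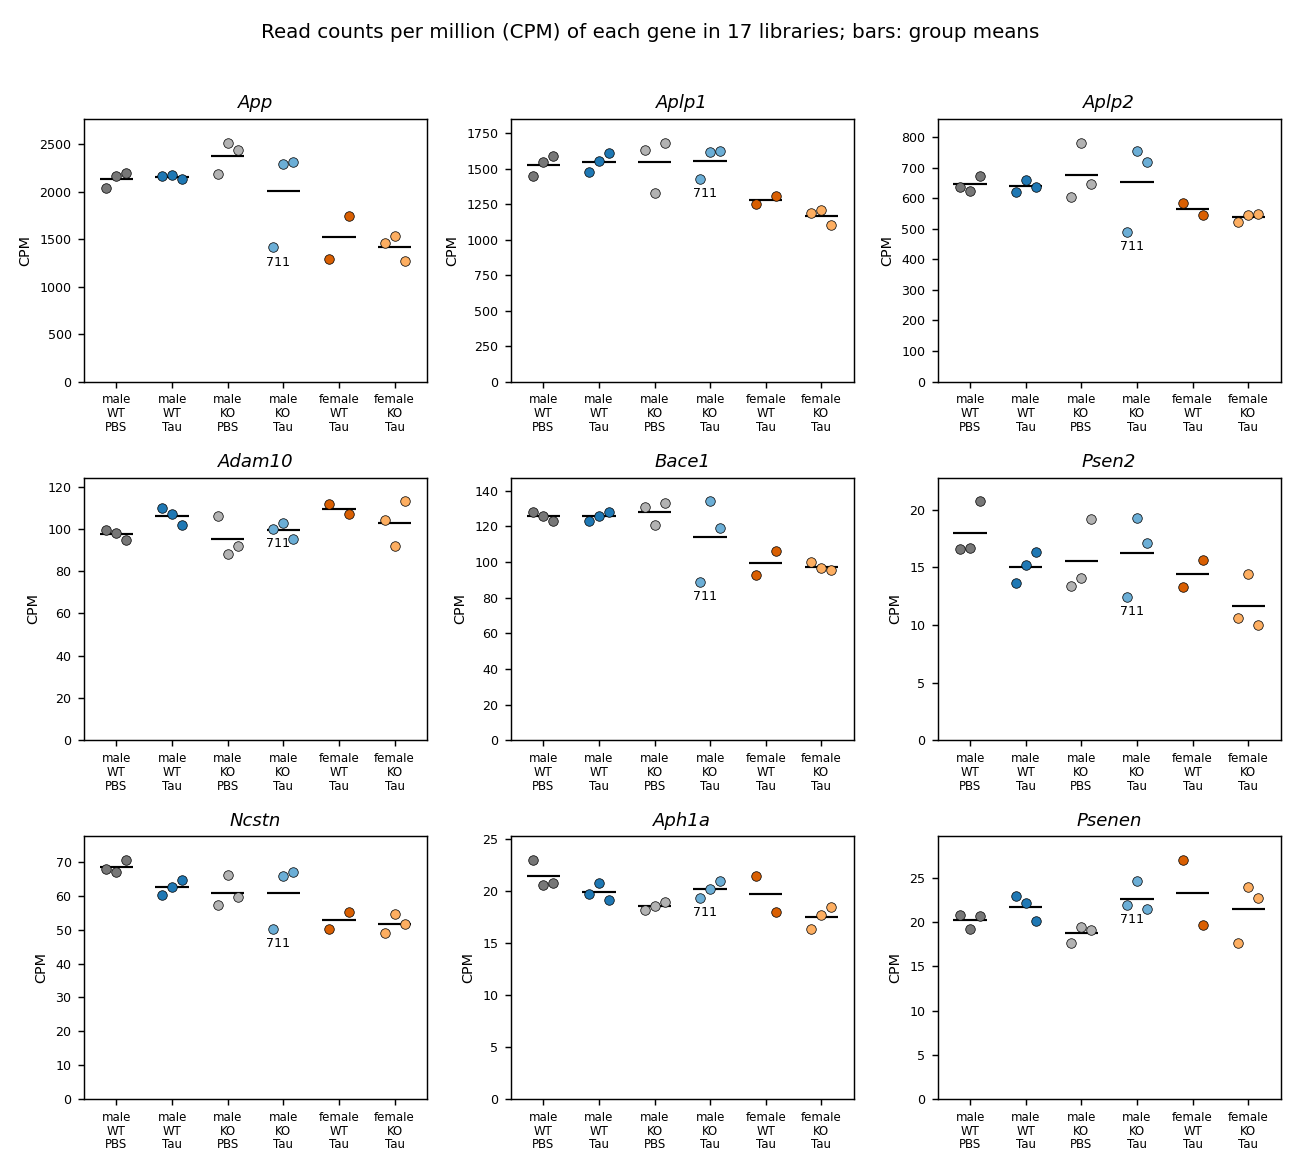
CPM of each gene (one panel each, axis from 0) in 17 libraries by group, with bars at group means and male KO Tau replicate 711 marked. For App, the 11 other male libraries lie at 2035 to 2515 CPM and the 5 female libraries at 1266 to 1738, while Adam10 and Psenen overlap between the sexes.

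The first question was whether Tau injection or loss of Acss2 changed these genes in males. No member passed a false discovery rate (FDR) of 0.05 in any of the male comparisons, in which 12 libraries were fitted together with the edgeR quasi-likelihood test and p-values were adjusted over 15098 genes. After Tau injection of WT males, 0 of 9 members were called (background 0% of genes), and 0 of 9 had an unadjusted p under 0.05. App was at 2156 ± 23 CPM with Tau and 2132 ± 85.3 with PBS (SD, n = 3 each), a log2 fold change of 0.00 with a 95% interval of -0.36 to 0.36. The member that differed most was Psen2, at 15.1 ± 1.38 against 18 ± 2.34 CPM (log2 fold change -0.27, interval -0.66 to 0.12), and the highest was Adam10 at 0.11 (-0.08 to 0.30).

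Knockout alone gave the same count, with 0 of 9 members called between male KO PBS and male WT PBS (background 0.00662% of genes, which was 1 gene, Acss2) and 0 with an unadjusted p under 0.05. App was at 2379 ± 170 CPM in KO PBS against 2132 ± 85.3 in WT PBS, the largest positive difference among members at 0.21 on the log2 scale (-0.15 to 0.57). Male KO Tau replicate 711 is in neither group but enters the shared estimate of spread. Without it App was again at 0.21, with SE 0.08 in place of 0.16 (unadjusted p = 0.0185, adjusted p = 0.659, edgeR). Psen2 was at -0.15 (-0.54 to 0.23). The 9 members had a median log2 fold change of 0.02, against 0.01 over all genes.

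With Tau and knockout combined, 0 of 9 members were called against male WT PBS and 0 of 9 against male WT Tau (background 0.00662% of genes in each), with 0 members at an unadjusted p under 0.05 in both. App was at 2004 ± 514 CPM in male KO Tau, a mean over libraries at 1411, 2295 and 2308 CPM.
Its log2 fold change was -0.08 against WT PBS (-0.44 to 0.27) and -0.08 against WT Tau (-0.44 to 0.27), and without replicate 711 it was 0.11 in each. Against WT PBS, the lowest member was Ncstn at -0.16 (-0.39 to 0.07) and the highest Psenen at 0.17 (-0.02 to 0.37). Against WT Tau, Bace1 was lowest at -0.12 (-0.38 to 0.14) and Psen2 highest at 0.13 (-0.25 to 0.52).

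The study's own test of these comparisons was DESeq2 and did not use every male KO Tau library. When DESeq2 was fitted to the 2 groups compared without replicate 711, 0 of 9 members were called against WT PBS (background 7.13% of genes) and 1 of 9 against WT Tau (background 9.3% of genes). The member was Aplp2, which replicates 712 and 713 of male KO Tau had at 754 and 717 CPM, against 621, 660 and 636 CPM in male WT Tau, with a log2 fold change of 0.22 (SE 0.07, adjusted p = 0.0299, DESeq2). With replicate 711, at 490 CPM, the value was 0.05 (interval -0.27 to 0.38, adjusted p = 0.979, edgeR). The same DESeq2 test on all male libraries but replicate 711 called 0 members, and edgeR on the 2 groups without that library called 0 members as well.

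Within KO males, 0 of 9 members were called between Tau and PBS (background 0% of genes). An unadjusted p under 0.05 was found for 1 member, as for 1201 of the 15098 genes tested. That member was Psenen, the smallest subunit, at 22.7 ± 1.7 CPM with Tau and 18.7 ± 0.914 with PBS. Its Tau libraries (21.9, 24.6 and 21.5 CPM) did not overlap those with PBS (17.7, 19.4 and 19.1 CPM). Those of Aph1a did not overlap either (19.4 to 21 against 18.2 to 19 CPM). Groups also did not overlap between male WT Tau and WT PBS for Adam10, Psen2 and Ncstn. The same held for Ncstn and Aph1a between KO PBS and WT PBS, and for Ncstn and Psenen between KO Tau and WT PBS. The share of all genes without overlap was not counted for any of these. Between Tau and PBS within KO males, the log2 fold change of Psenen was 0.23 (interval 0.04 to 0.42, adjusted p = 0.57, edgeR). This difference did not hold after correction over all genes. App was lowest at -0.29 (-0.65 to 0.06) and at -0.10 without replicate 711. The genotype by treatment interaction called 0 of 9 members (background 0% of genes, 0 with an unadjusted p under 0.05), with App at -0.29 (-0.80 to 0.21) and Psen2 at 0.29 (-0.26 to 0.84). Without replicate 711, App was at -0.10 and Psen2 at 0.44 in the interaction. Over the 5 pairs of male groups the intervals of members reached from -0.66 to 0.57, so differences up to this size could not be told from 0 for the most variable genes.

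**Figure D3:**
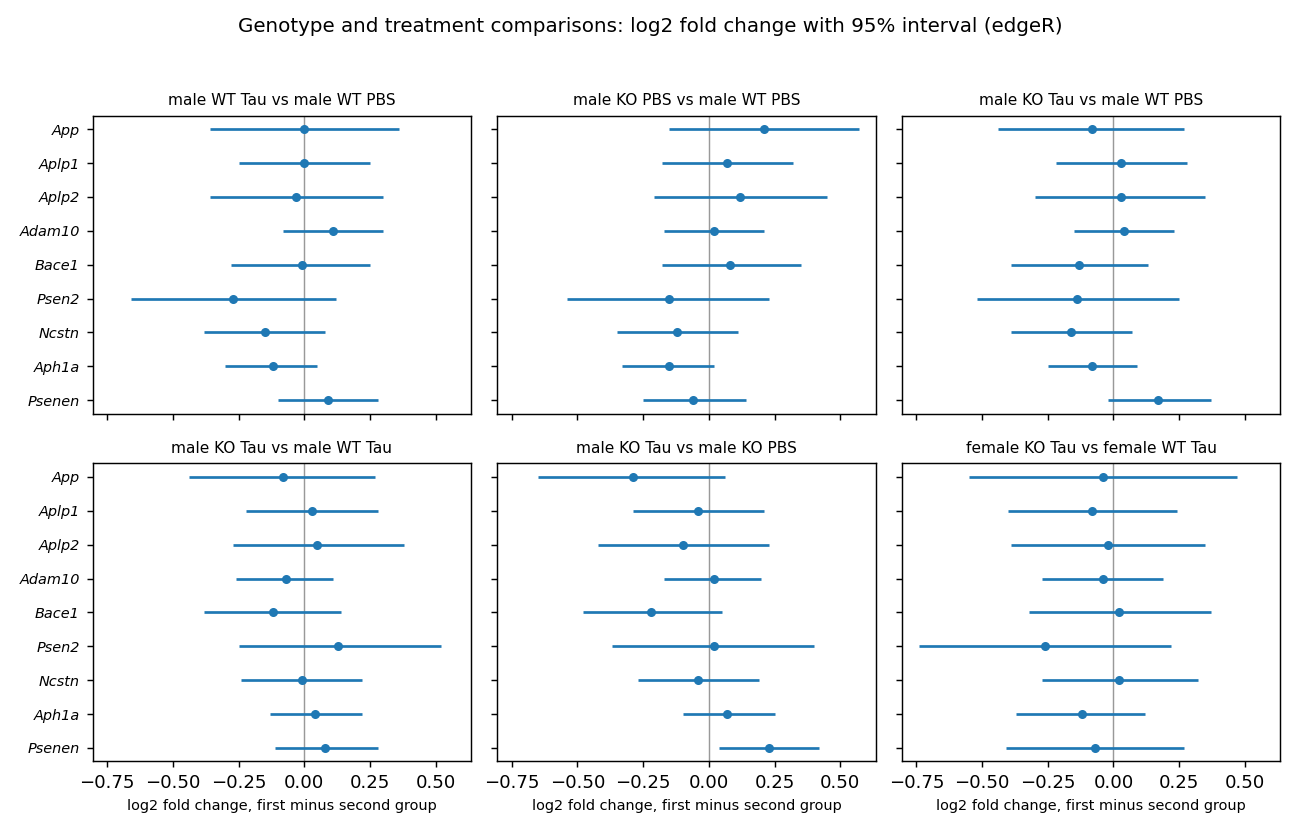
Log2 fold change (points) with 95% interval (lines) of the 9 genes in 5 male comparisons and in female KO Tau against female WT Tau, each first minus second group, from edgeR. Every interval includes 0 except that of Psenen in male KO Tau against male KO PBS (0.04 to 0.42).

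Knockout was also compared in females, all injected with Tau. 0 of 9 members were called between female KO Tau and female WT Tau (background 0.00649% of 15419 genes, fitted over the 11 Tau libraries, with 0 members at an unadjusted p under 0.05). App was at 1420 ± 139 CPM in KO (n = 3) and 1517 ± 313 in WT (n = 2), a log2 fold change of -0.04 (-0.55 to 0.47). Psen2 was lowest at -0.26 (-0.74 to 0.22) and Bace1 highest at 0.02 (-0.32 to 0.37). The effect of genotype was not shown to differ between the sexes: the interaction called 0 of 9 members (background 0% of genes, 0 with an unadjusted p under 0.05), with values from -0.40 for Psen2 (-1.04 to 0.25) to 0.14 for Bace1 (-0.32 to 0.61).

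One library stood apart within its group. In male KO Tau replicate 711, App was at 0.613 times the mean of replicates 712 and 713, Aplp2 at 0.666, Psen2 at 0.683, Bace1 at 0.703 and Ncstn at 0.755 times, and all 5 were at their lowest among the 12 male libraries there. The share of all genes at their lowest in this library was not counted. Adam10 (1.01 times), Psenen (0.948) and Aph1a (0.941) were close to replicates 712 and 713. Aplp1 (0.883) was at place 2 from the lowest of the 12 male libraries. Of all genes tested, 10.7% were as low as App or lower in this ratio, and the median log2 ratio was -0.02. Without this library, the coefficient of variation over male libraries fell from 12.6% to 6.24% for App and from 9.52% to 3.77% for Bace1. The median over all tested genes fell from 14.4% to 12.9%. With the library 25.1% of tested genes varied less than Bace1, and without it 0.827%. Replicate 711 held the lowest male value of both genes, so the fall on leaving it out is no measure of their stability. The summed nuclear-retained RNAs were at 5407 CPM in replicate 711 against 1910 to 4242 CPM in the other males. What these values had to do with the low App was not tested.

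Female and male libraries under Tau differed in 4 of the 9 members, all lower in females, where 23.8% of the 15419 genes tested were called in either direction and 12.4% were called lower. App was at 0.677 times the male level (interval 0.533 to 0.861, log2 fold change -0.56, SE 0.16, adjusted p = 0.0279), Aplp1 at 0.753 times (0.648 to 0.876, -0.41, SE 0.10, adjusted p = 0.0171), Bace1 at 0.787 times (0.67 to 0.924, -0.35, SE 0.11, adjusted p = 0.0373) and Ncstn at 0.81 times (0.706 to 0.929, -0.30, SE 0.09, adjusted p = 0.0337), all by the edgeR quasi-likelihood test. Fewer cells that make these RNAs and less RNA per cell cannot be told apart in bulk tissue. All 9 members had a log2 fold change below 0, with a median of -0.30, against a median of -0.01 over all genes, of which 51.5% were below 0.

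The other 5 members were not called. Aplp2 was at -0.30 on the log2 scale (interval -0.55 to -0.05, adjusted p = 0.0784, edgeR), Psen2 at -0.33 (-0.66 to -0.01, adjusted p = 0.118) and Aph1a at -0.17 (-0.34 to -0.01, adjusted p = 0.11). Psenen was at -0.06 (-0.29 to 0.17, adjusted p = 0.7) and Adam10 at -0.02 (-0.17 to 0.13, adjusted p = 0.831). The sign of Adam10 depends on the scaling, at 0.03 with library totals and -0.03 with TMM factors as a difference of mean log2 CPM, a scaling that moved the median over all genes from 0.05 to -0.01.

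Single libraries were then compared. Aplp1 alone among the members had every female library below every one of the 6 male Tau libraries, as did 3.77% of genes. Without replicate 711 this held for 5 of 9 members (App, Aplp1, Aplp2, Bace1 and Ncstn), as it did for 11.2% of genes. The edgeR test without that library called 6 of 9 members, the same 5 and Psen2, with 40.7% of genes called, and App was then at -0.64 on the log2 scale.

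The calls rested on few libraries. Leaving out female WT Tau replicate 331 or male WT Tau replicate 773 left 0 of 9 members called, while the log2 fold change of App stayed between -0.70 and -0.45 over all 11 fits with 1 library left out. Aplp1 was called in 9 of these 11 fits (-0.44 to -0.37), App in 4, Ncstn in 3 (-0.36 to -0.26) and Bace1 in 2 (-0.42 to -0.27). Without female WT Tau replicate 331, which had the highest oligodendrocyte marker sum (11812 CPM), 628 genes were called in all, against 3674 with it. Within WT libraries alone App was at -0.58 (SE 0.24, adjusted p = 0.182, edgeR) and within KO libraries alone at -0.54 (SE 0.21, adjusted p = 0.116), and 0 of 9 members were called in either. When per-library trends with GC content and length were removed, 3 of 9 members were called (background 19.3% of genes): App (-0.65), Bace1 (-0.32) and, with a value of -0.22 and an adjusted p of 0.0288 by edgeR, Adam10. Aplp1 (-0.21, adjusted p = 0.0946) and Ncstn (-0.24, adjusted p = 0.0502) were not called in that fit.

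**Figure D4:**
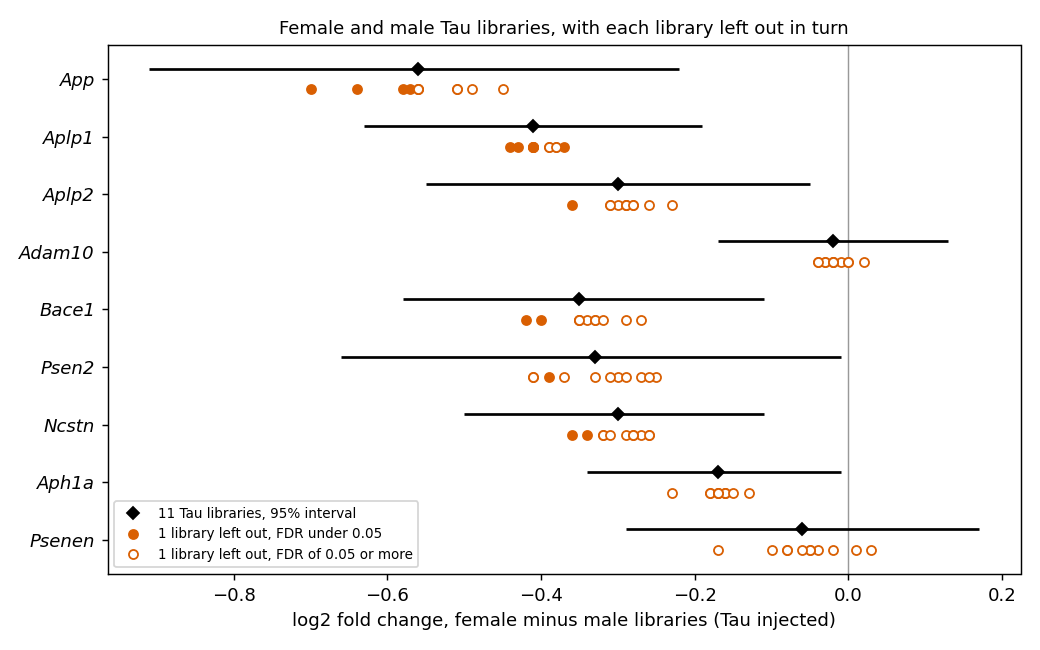
Log2 fold change of the 9 genes between female and male Tau libraries, female minus male. Diamonds with lines give the value and 95% interval over 11 libraries, and circles the value with 1 library left out in turn, filled where the adjusted p was under 0.05. App spans -0.70 to -0.45 and Aplp1 -0.44 to -0.37, with Aplp1 filled in 9 of 11.

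Cell type markers were compared between the same libraries. Their counts stand beside a background of 23.8% of genes called in either direction and 12.4% called lower. Summed astrocyte markers were at 6804 to 7398 CPM in females and 3309 to 6499 in male Tau libraries, of which 6499 was replicate 711, and 3 of 6 of them were called higher. Endothelial markers (165 to 235 against 117 to 176 CPM, 3 of 4 called higher) and microglial markers (409 to 486 against 318 to 428 CPM, 2 of 6 called higher) overlapped with the males. Inhibitory neuron markers were lower, at 482 to 685 CPM in females and 609 to 1016 in male Tau libraries, with 3 of 6 called lower, and neocortex markers had 2 of 4 called lower. Oligodendrocyte markers (4736 to 11812 against 3547 to 7584 CPM) had 1 of 8 called higher. The CA1 list had 1 of 4 called lower and the thalamus list 1 of 3 called higher. No marker of dentate granule cells, CA3, striatum or choroid plexus was called, nor a nuclear-retained RNA. The part of these differences in the lower App, Aplp1, Bace1 and Ncstn was not tested.

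Over all 6 groups together, 4 of 9 members were called by an F-test in edgeR on 17 libraries, where 19% of the 15594 genes tested were called. They were App (F = 6.44, adjusted p = 0.021), Aplp1 (F = 5.92, adjusted p = 0.026), Bace1 (F = 5.75, adjusted p = 0.0281) and Ncstn (F = 5.6, adjusted p = 0.0303), the members called between the sexes. Without female KO Tau replicate 325, 0 of 9 were called. Adam10 had F = 0.399 (adjusted p = 0.889) and Psenen F = 0.908 (adjusted p = 0.636).

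The ratio of 2 genes within a library does not depend on the scaling of the library, but it keeps trends with GC content and length. With these trends removed, the log2 fold change between female and male Tau libraries was -0.22 for Adam10 and -0.32 for Bace1. In the main fit it was -0.02 and -0.35, so the 2 genes differed less after removal. The ratios below are of raw counts. The ratio of Adam10 to Bace1 counts was 1.21 and 1.01 in female WT Tau and 1.04, 0.952 and 1.18 in female KO Tau. In the 11 male libraries other than replicate 711 it ran from 0.692 to 0.895, and in replicate 711 it was 1.13. All female libraries and replicate 711 were thus above the other males, which restates their lower Bace1 beside a similar Adam10. The share of other gene pairs that separate in this way was not counted. The ratio of App to Aplp2 counts was 2.22 to 3.19 in females, 3.04 to 3.76 in the 11 males and 2.88 in replicate 711, so that the sexes overlapped in part. The ratio of App to Aplp1 counts was lowest in replicate 711 (0.985) and overlapped between females (1.04 to 1.33) and the other males (1.32 to 1.89) only at the edge.

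**Figure D5:**
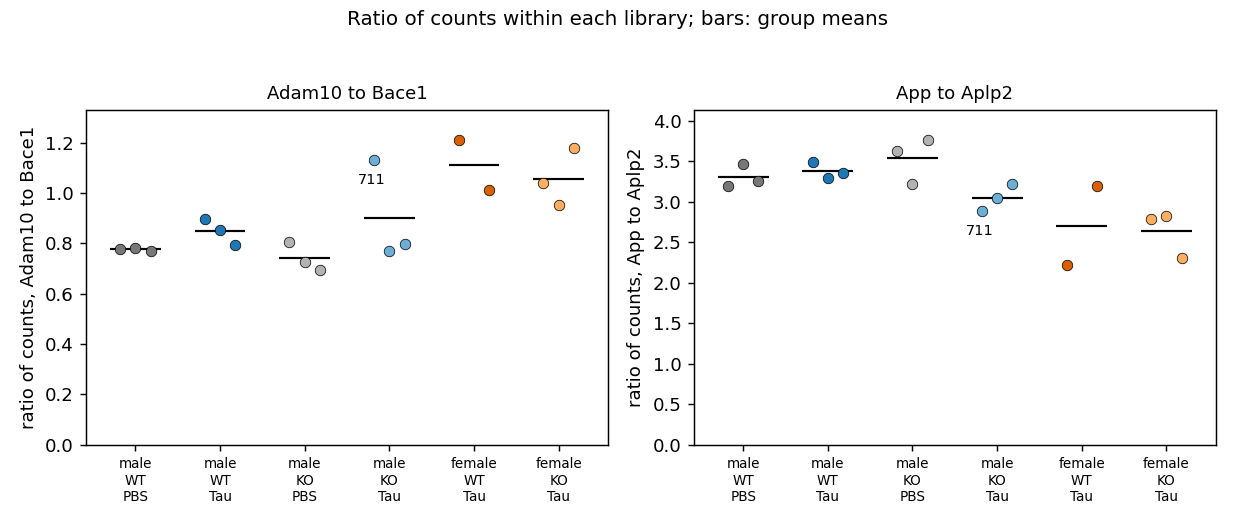
Ratio of read counts within each library by group, for Adam10 to Bace1 (left) and App to Aplp2 (right), on axes from 0, with bars at group means. For Adam10 to Bace1, the 5 female libraries (0.952 to 1.21) and male KO Tau replicate 711 (1.13) lie above the other 11 male libraries (0.692 to 0.895).

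Other genes of App biology were followed in 5 lists of 54 genes in all, each of which was measured and tested. In the male comparisons, the interactions and the female genotype comparison 0 of 54 were called by edgeR. Between female and male Tau libraries 16 were called lower and 2 higher (33.3% of the lists), with a median log2 fold change of -0.18. Of all genes tested, 23.8% were called in either direction and 12.4% were called lower, with a median of -0.01.

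Of the secretase paralogs, 1 of 5 was called. Aph1b, whose product can replace that of Aph1a in the complex, was higher in females, at 1.24 times the male level (0.31, SE 0.08, adjusted p = 0.022, edgeR). Adam9 (0.03), Adam17 (0.14), Aph1c (-0.14) and Bace2 (-0.04) were not called.

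Of the proteins that bind the App tail or travel with App, 5 of 12 were called, all lower. They were Apbb1, the Fe65 adaptor (-0.61, 319 to 412 CPM in females against 430 to 647 in male Tau libraries), Apba2, an X11 family adaptor (-0.51), Klc1, a kinesin light chain (-0.46), Itm2c (-0.43) and Apbb3 (-0.30, 28.4 to 36.9 against 37.2 to 40.8 CPM). For Apbb1 and Apbb3, every female library was below every one of the 6 male Tau libraries, as for 3.77% of all genes tested. Among the called genes of the other lists, the same held for Gga1, Gga3, Thop1 and Sez6.

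Of the genes for trafficking and regulation, 6 of 14 were called. Gga3, a sorting adaptor of Bace1, was at -0.50 (53.2 to 65.7 CPM against 68.4 to 90.1) and Gga1 at -0.30. Tspan5 (-0.49) and Tspan14 (-0.24), tetraspanins that escort Adam10, and Rtn3 (-0.44), a reticulon that binds Bace1, were also lower. Timp3, a metalloproteinase inhibitor, was higher, at 0.72 (SE 0.11, adjusted p = 0.00431, edgeR) and 137 to 198 CPM in females against 87.7 to 118 in male Tau libraries.

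Of 8 genes for degradation and uptake of amyloid beta, only Thop1, a metallopeptidase, was called (-0.62, 30 to 38.7 CPM against 39.8 to 53.9). Of 15 other secretase substrates, 5 were called lower: the Bace1 substrates Sez6 (-0.80), Sez6l (-0.42) and Sez6l2 (-0.45), the adhesion gene L1cam (-0.68) and Prnp (-0.34), which encodes the prion protein. The lists were read from their counts alone, beside a background of 23.8% of genes called in either direction and 12.4% called lower.

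The genes whose pattern was most like that of App over the 17 libraries were Trappc12, Pik3r4, Tuba4a, Eno2 and Apba2. Their root mean square difference from App in centred log2 CPM was 0.0715, 0.0752, 0.0752, 0.0789 and 0.0827, against a median of 0.446 over 15593 genes and a root mean square of 0.359 for the deviations of App itself. Eno2, the neuronal enolase, was at 631 to 747 CPM in females, 750 in replicate 711 and 1053 to 1197 in the other males, and Tuba4a, an alpha tubulin, at 241 to 360, 298 and 405 to 507 CPM. Among the members, Bace1 was closest to App (0.157, place 323), then Ncstn (0.198), Aplp2 (0.2), Aplp1 (0.204) and Psen2 (0.227), and Adam10 (0.383) and Psenen (0.409) were farthest. The points share library, depth and dissection, and likeness was given as a description.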

How the data were processed

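Poly(A) RNA of dorsal hippocampus was sequenced in 17 libraries of 6 groups taken from the labels. The authors aligned reads with STAR 2.5.2 to GRCm38 and counted exonic reads of each gene by strand in HTSeq 0.9.1, and the deposited values are raw counts with no normalization. The annotation release was not given in the sources used here, and positions and lengths came from GENCODE M21.

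The tests were run in edgeR 4.0.16 under R 4.3.3 by quasi-likelihood (TMM factors, filterByExpr with minimum count 10 and minimum total count 15, Benjamini-Hochberg adjustment over all genes tested, FDR 0.05). Male contrasts used 1 fit of 12 libraries, contrasts with females 1 fit of 11 Tau libraries, and the test over 6 groups all 17. The code was tested on simulated data with 200 changed genes. Alternatives were DESeq2 1.42.0, RLE factors, no filter on low counts, voom with quality weights in limma 3.58.1, other sets of libraries and each replicate left out. Removal of GC and length trends (splines with 5 degrees of freedom), the contrast within each genotype and 2 DESeq2 fits without replicate 711 were added after seeing the data.

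Members are always reported, list genes where called, and for App the 5 genes with the smallest root mean square difference (log2 CPM, prior count 2). Members and lists were chosen with earlier results of these data known. A list gene is not reported here and was left out of the counts over its list. No 2 libraries had identical counts among 136 pairs, and the smallest chi-square per gene was 3.1.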

Additional observations from a re-analysis of the deposited data

How the results depend on the processing

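The 0 calls among members were the same under all alternatives in the male, interaction and female genotype comparisons, except for the 1 call (Aplp2) of DESeq2 on male KO Tau and WT Tau without replicate 711. Between female and male Tau libraries 4 members were called, 5 with DESeq2, voom or all 17 libraries, 3 with GC and length trends removed, 0 within WT and 0 within KO libraries, and 0 to 6 with 1 library left out. Over the 6 groups, 2 were called with those trends removed and 0 to 5 with 1 library left out. The F-test with voom called App, Aplp1, Bace1 and Ncstn, and also Aplp2 (adjusted p = 0.00504) and Aph1a (adjusted p = 0.0365). The cause was not tested.

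Of 81 member fold changes, 33 changed sign under some alternative, none over 0.15 in size on the log2 scale and none called. Of those printed, App in male KO Tau was at 0.08 against WT PBS and 0.07 against WT Tau with voom, at 0.01 against WT Tau with GC and length trends removed, and at 0.11 against either without replicate 711. Bace1 against WT Tau was at 0.03 (edgeR) and 0.02 (DESeq2) without it. In female KO against WT, App was at 0.03 with voom and Bace1 at -0.06 with trends removed. Psenen between the sexes was at 0.02 within WT. With 1 library left out, App ranged from -0.20 to 0.11 against both WT groups, Bace1 from -0.24 to 0.03 and Aplp2 from -0.05 to 0.22 against WT Tau, App from -0.27 to 0.22 and Bace1 from -0.10 to 0.16 in female KO, and Adam10 from -0.04 to 0.02 and Psenen from -0.17 to 0.03 between the sexes. No paired analysis was possible because the groups share no replicate numbers.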
